A study of Mus musculus and Homo sapiens with 180 samples.

Results

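The comparison described here is that of MOLM13 cells edited at BCOR with control cells, both kept in DMSO, the solvent of the inhibitors used elsewhere in the study. MOLM13 is a human acute myeloid leukaemia line that carries an MLL-AF9 fusion, and the table holds human gene identifiers, although the sample labels list the mouse as organism. The members were the 3 libraries labelled BCOR KO, DMSO and the 3 labelled control, DMSO of the MOLM13 knockout experiment, found by their labels and column names, which makes 6 of the 180 samples of the series. All 6 came from Cas9-expressing cells transduced with a vector for 1 sgRNA, selected and grown as a mixed population, and collected after 72 h in DMSO. For such knockouts the study's methods describe a control sgRNA to a safe genomic location, while for MOLM13 cells put into mice they name a non-targeting (NT) sgRNA, and the column names of these controls read NT. The same table holds PCGF1 KO cells and all 3 populations treated with the DOT1L inhibitor SGC0946 (5 µM, 72 h) or the Menin inhibitor VTP50469 (500 nM, 48 h). A second table holds control and PCGF1/BCOR double KO cells of a drug washout experiment, kept in DMSO for 96 h. RNA was read by 3′ RNA-seq, which sequences the polyadenylated end of each transcript, so that a count does not scale with the length of the gene.

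BCOR is a subunit of PRC1.1, the variant Polycomb repressive complex 1 built around PCGF1. The RING1 or RNF2 subunit of the complex adds ubiquitin to histone H2A, and KDM2B binds unmethylated CpG dinucleotides and so brings the complex to CpG islands. PRC1.1 is known for holding developmental genes silent, and BCOR mutations recur in myeloid leukaemia. BCOR was first described as a co-repressor of BCL6, a transcriptional repressor of B cells.

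The study lists 2 sgRNAs for human BCOR. The column names of the knockout carry the tag G2, but no label says which oligonucleotide was used, so both are shown, 5′ to 3′, as the genome strand that each one matches, with the PAM in capitals.
Human BCOR sgRNA 1: gggtcaatccttacatggAGG
Human BCOR sgRNA 2: gcgcaatggacgagaggcGGG
The 18 bases of sgRNA 1 matched hg38 once with an NGG PAM, at chrX:40074757-40074774 on the minus strand. Those of sgRNA 2 also matched once, at chrX:40074498-40074515 on the plus strand. Both sites lie in coding exon 4 of BCOR, whose gene model spans chrX:40049815-40177329. The predicted cuts fall in codon 196 and codon 278 of 1755, with 11.1% and 15.8% of the coding sequence before them. Reads of a 3′ library come from the other end of the transcript, so the BCOR count says nothing about whether these sites were edited.

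The 3 BCOR KO libraries held 5140598 to 5921745 reads on genes and the 3 control libraries 5127116 to 6027321. Reads on no gene made up 37.5% to 40.8% of the BCOR KO libraries and 36.8% to 48.6% of the controls, the highest share being that of control replicate 2. Control replicate 2 had the highest of the 3 control values for 42.9% of all genes tested, 30.1% of the genes called higher and 60.3% of those called lower, and without it 666 genes were called. The listed granulocyte genes summed to 1577 to 3084 CPM in the 6 libraries (reads on the gene per 1000000 reads on genes, with the library size scaled by TMM). PRTN3 and ELANE made up most of this sum, and 9 of the 18 listed genes were at 0 in all 6 libraries. Monocyte genes summed to 127 to 187 CPM, CD68 was at 0 in all 6 libraries, and LYZ, an abundant monocyte transcript, had means of 0.916 CPM in the control and 0.999 CPM in the BCOR KO libraries. GAPDH (9.87 and 9.8 CPM) and CDK4 (2 and 0 reads), genes transcribed in most cells, were also low in control and BCOR KO libraries. A low or 0 count here thus need not mean a low transcript level, and the cause was not tested. The study calls the MOLM13 replicates biological, but neither it nor the labels say what was done separately for each, so the p-values measure the spread between these libraries.

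BCOR itself was higher, not lower, in the edited cells. It stood at 55.3, 45.3 and 56 CPM in the libraries labelled control and at 97.9, 111 and 106 CPM in those labelled BCOR KO. All 3 BCOR KO values lay above all 3 controls, by 2.01-fold (log2 fold change 1.01 ± 0.09 SE, edgeR adjusted p = 5.04e-09). PCGF1 KO cells had a mean of 62.9 CPM, and the direct test between both knockouts gave a log2 difference of 0.74 (adjusted p = 8.07e-07). Of the other 9 subunits and partners of PRC1.1 that were tested, none was called, and the median log2 fold change over the 10 was 0.06. PCGF1, the subunit that binds BCOR, was at 7.62, 8.42 and 7.19 CPM in the controls and at 5.41, 6.59 and 5.96 CPM in the BCOR KO libraries, and this was not called (adjusted p = 0.487). BCORL1, the close relative of BCOR, had means of 7.62 and 11.1 CPM and just missed the threshold (adjusted p = 0.051), and it averaged 21.2 CPM in PCGF1 KO cells. This count does not show whether BCOR was edited. For target genes the study's methods state that disruption was established by immunoblot or Sanger sequencing. Every direction below is that of the libraries labelled BCOR KO against the libraries labelled control.

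Of 12140 genes tested with edgeR's quasi-likelihood test, 492 (4.05%) were higher and 363 (2.99%) lower in the BCOR KO libraries at an adjusted p under 0.05, together 855 genes or 7.04%. The 3 BCOR KO values lay wholly above or below the 3 controls for 2459 genes (20.3%), and for 817 of the 855 called. At an unadjusted p under 0.05 there were 2405 genes (19.8%). The model shares 1 estimate of spread among all 27 libraries of the table. Fitted on the 6 compared libraries alone it called 317 genes, of which 316 were among the 855. With library size alone as the scaling, 568 genes were higher and 288 lower.

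The gains were larger than the losses and began from lower control levels. The same control values entered the calls, so part of that difference in level follows from the sorting. The genes called higher had a median log2 fold change of 0.93 and the genes called lower one of −0.75. A change of over 4-fold was found for 103 of the former and 40 of the latter, and one of over 8-fold for 53 and 8. The median level of the genes called higher was 9.33 CPM in the controls and 19.7 CPM in the BCOR KO libraries, and that of the genes called lower was 34 and 19.4 CPM. Of the genes called higher, 39.8% had under 5 CPM in the controls, against 12.9% of those called lower and 25.6% of all genes tested. Protein-coding genes made up 453 of the genes called higher and 324 of those called lower, and 21 and 18 were long non-coding RNAs.

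The 12 largest gains among called genes that reached 10 CPM and did not overlap between groups included transcription factors and receptors known from embryonic tissues. NR2F1, an orphan nuclear receptor of neural development (chr5:93583222-93594611, plus strand), was at 1.06, 1.2 and 0.163 CPM in the controls and at 61.6, 62.8 and 47.9 CPM in the BCOR KO libraries. It was thus read at no more than 1.2 CPM in any control and at 47.9 CPM or more in every BCOR KO library, a 70.9-fold difference (log2 fold change 6.17 ± 0.31, adjusted p = 1.63e-14). TFAP2A, a transcription factor of neural crest and epidermis (chr6:10393186-10419659, minus strand), went from 0.709, 0.401 and 1.31 CPM to 37.1, 35.6 and 29.8 CPM. Its groups were 42.4-fold apart (5.32 ± 0.28, adjusted p = 3.98e-14). Both genes overlap an antisense RNA, NR2F1-AS1 and TFAP2A-AS1, which were called higher as well, and since the strand setting of the counting is not given the reads of each pair may be shared.

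FGFR1, a receptor tyrosine kinase for fibroblast growth factors, was at 2.13, 0.602 and 1.47 CPM in the controls against 43.8, 40.9 and 41.2 CPM in the BCOR KO libraries. Its groups did not overlap, and the means differed 30.0-fold (log2 fold change 4.85 ± 0.20, adjusted p = 4.55e-16). MYO6, a myosin that moves towards the minus end of actin filaments, rose from 5.85, 9.62 and 6.04 CPM to 77.1, 86.9 and 77.1 CPM, an 11.2-fold difference between groups that did not overlap. EEF1A2, a translation elongation factor of neurons and muscle, rose 20-fold from a mean of 1.2 CPM, and TBC1D4, a Rab GTPase-activating protein of insulin-stimulated glucose transport, 17.8-fold from 0.85 CPM. HIVEP2, a zinc finger transcription factor, and NRN1, a neuronal surface protein, rose 16.6-fold and 10.5-fold. PLEKHO1, a protein with a pleckstrin homology domain, was among the 5 genes with the smallest adjusted p, with means of 6.01 and 50.9 CPM (adjusted p = 6.37e-16).

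Strong gains were also seen in genes that the control cells already transcribed. CCND2, the cyclin D2 that drives entry into S phase, was at 23.2, 22.5 and 28.7 CPM in the controls and at 130, 134 and 128 CPM in the BCOR KO libraries. The groups lay 5.26-fold apart (log2 fold change 2.39 ± 0.09), the smallest adjusted p of the comparison (1.57e-16). TMSB4X, the actin-binding thymosin beta 4 and one of the most abundant transcripts, rose 3.36-fold, from 1090, 992 and 1082 CPM to 3892, 3357 and 3377 CPM. The lowest BCOR KO value was over 3 times the highest control value.

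**Figure D1:**
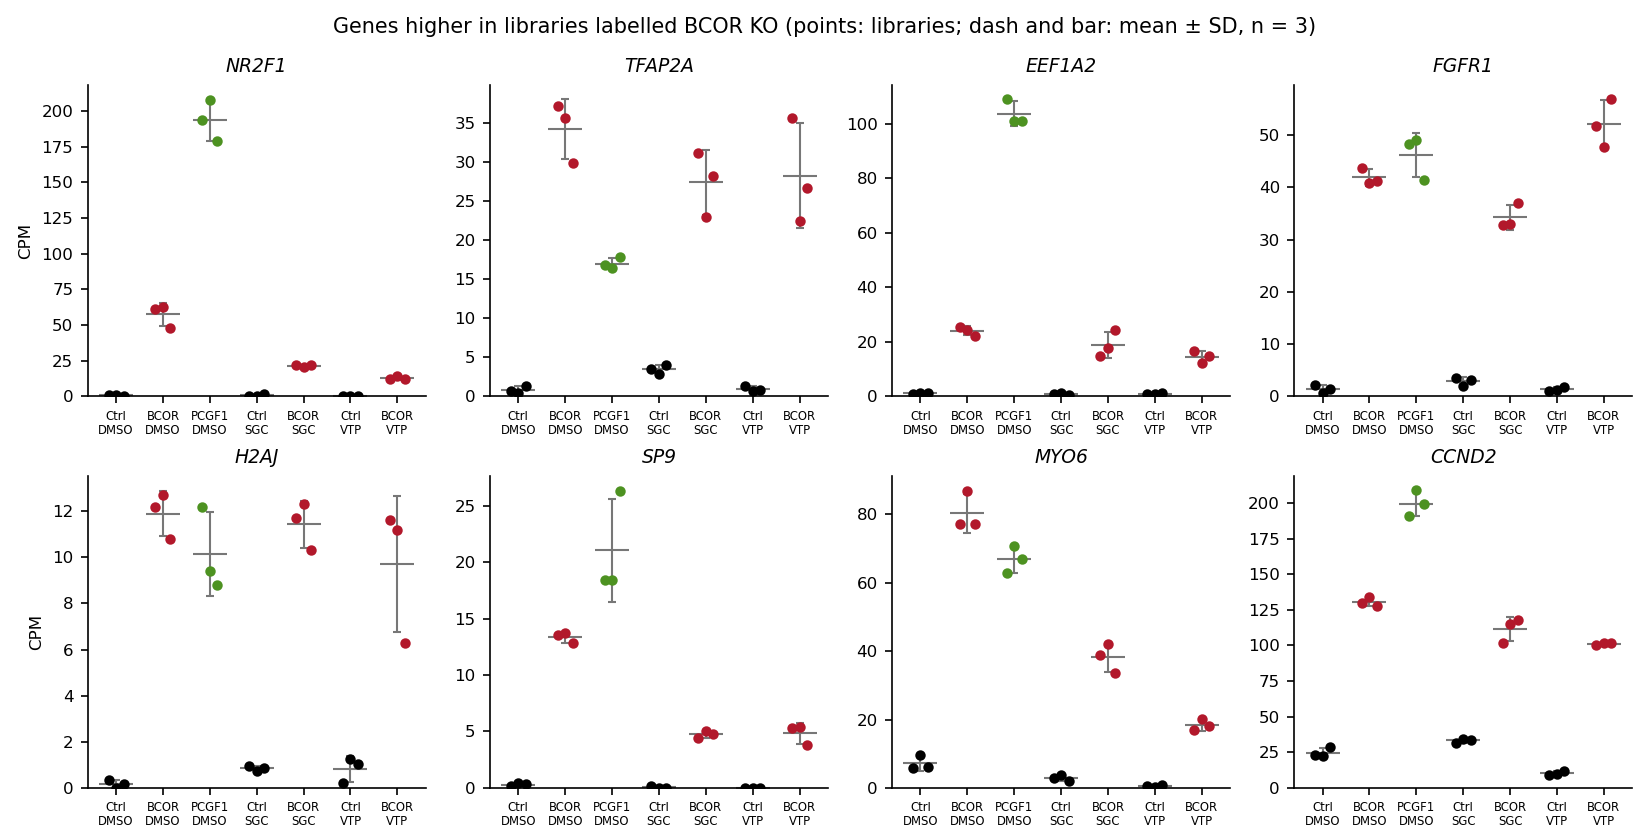
CPM of 8 genes that were higher in BCOR KO libraries, 1 panel each, for control, BCOR KO and PCGF1 KO libraries in DMSO and for control and BCOR KO libraries in SGC0946 (SGC) and VTP50469 (VTP). Points are libraries, the dash and bar are mean ± SD (n = 3), and every BCOR KO library in DMSO lies above every DMSO control.

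A set of 36 genes called higher had at most 3 reads summed over the 3 control libraries, and 14 of these had none. It held 29 protein-coding genes and 4 long non-coding RNAs. A group with no read may still hold up to 0.179 CPM, the level of 3 counts over its 3 libraries, and folds against such a group are given as lower bounds that cover counting error only. The sequences of the 200 bases before the annotated start of the 3 genes of this set with the highest level in BCOR KO cells are shown because CpG dinucleotides, in capitals, are what KDM2B binds. They were read from GRCh38 at the GENCODE canonical start, 5′ to 3′ on the strand of the gene.
LINC01305, chr2:174325827-174326026, plus strand, 4 CpG: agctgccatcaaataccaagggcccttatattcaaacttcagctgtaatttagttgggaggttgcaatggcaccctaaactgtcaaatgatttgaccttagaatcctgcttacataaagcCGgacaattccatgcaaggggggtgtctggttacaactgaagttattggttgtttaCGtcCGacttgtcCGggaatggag
H2AJ, chr12:14774205-14774404, plus strand, 13 CpG: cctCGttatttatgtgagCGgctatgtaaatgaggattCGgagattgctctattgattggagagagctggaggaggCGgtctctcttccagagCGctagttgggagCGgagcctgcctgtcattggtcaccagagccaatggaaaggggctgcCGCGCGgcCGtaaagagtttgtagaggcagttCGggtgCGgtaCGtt
GPX7, chr1:52602171-52602370, plus strand, 20 CpG: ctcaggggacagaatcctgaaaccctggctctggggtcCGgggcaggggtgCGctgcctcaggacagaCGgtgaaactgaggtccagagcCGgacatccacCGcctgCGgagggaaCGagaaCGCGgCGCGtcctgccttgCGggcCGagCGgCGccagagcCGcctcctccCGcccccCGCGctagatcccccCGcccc
The 3 windows thus ranged from CpG-poor to CpG-dense.

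LINC01305, a long non-coding RNA, had 2 reads in the controls and 211 in the BCOR KO libraries, a ratio of 105 (95% counting interval 28.8 to 875). Its 3 BCOR KO values were 13.1, 12.7 and 11.9 CPM. SP9, a zinc finger transcription factor of limb and forebrain development, begins 4311 bases downstream of it on the same strand and went from 0.177, 0.401 and 0.327 CPM to 13.5, 13.7 and 12.8 CPM, a 44.2-fold rise. The other 3 tested genes within 100000 bases of LINC01305, namely OLA1, CIR1 and SCRN3, were not called. H2AJ, a replication-independent H2A histone, had 3 reads against 200 (ratio 66.6, 22.4 to 325), at 12.2, 12.7 and 10.8 CPM in the BCOR KO libraries. GPX7, a glutathione peroxidase of the endoplasmic reticulum, had no read in the controls and stood at 9.46, 8.41 and 10.1 CPM, at least 51.9-fold higher.

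SOX18, a factor of endothelial and lymphatic development, had no control read and a mean of 5.89 CPM, at least 32.6-fold higher. The same held for GDF6, a bone morphogenetic protein (at least 20.6-fold), CCNO, a cyclin of multiciliated cells (at least 19-fold), and DLX3, a homeobox factor of skin and placenta (at least 18-fold). FLNC, the filamin of muscle, had 2 control reads and a ratio of 41.4 (11.1 to 348). PAX5, the master regulator of B cells, had 1 control read and 58 reads in the BCOR KO libraries. PAX5 was the single B cell marker that passed the filter, and the summed level of the whole B cell list was 1.14 to 2.48 CPM in the controls and 3.63 to 6.5 CPM in the BCOR KO libraries, with 4 of its genes at 0 throughout.

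The 12 largest losses, taken like the gains among called genes with no overlap between groups and at least 10 CPM in the higher group, included genes of phagocytes, granulocyte precursors and inflammatory signalling. BASP1, a myristoylated membrane protein and WT1 co-repressor (chr5:17065598-17276843, plus strand), was at 161, 226 and 157 CPM in the controls and at 33.8, 29.8 and 30.3 CPM in the BCOR KO libraries. The highest BCOR KO value lay below the lowest control by a wide margin, and the log2 fold change was −2.53 ± 0.11 (adjusted p = 6.37e-16). SORL1, a sorting receptor of the LDL receptor family (chr11:121452314-121633763, plus strand), fell from 31.0, 32.1 and 37.9 CPM to 5.99, 4.12 and 6.32 CPM. Its log2 fold change was −2.63 ± 0.17 (adjusted p = 4.32e-12). CYBB, the catalytic subunit of the phagocyte NADPH oxidase, was at 36.5, 46.3 and 30.2 CPM against 8.88, 7.42 and 9.57 CPM (−2.12 ± 0.14, adjusted p = 9.24e-12). BLVRA, which reduces biliverdin to bilirubin, was at 11.9, 12.2 and 8.66 CPM against 1.93, 1.15 and 1.81 CPM, the lowest log2 fold change of the 12 (−2.74 ± 0.28).

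TNF and LTB, both cytokines of the tumour necrosis factor family, lie 2189 bases apart on chromosome 6 and were both lower. LTB (chr6:31580525-31582522, minus strand) was at 84.5, 97.2 and 102 CPM in the controls and at 22.2, 31.6 and 27.5 CPM in the BCOR KO libraries. TNF (chr6:31575565-31578336, plus strand) was at 79.2, 133 and 101 CPM against 25.7, 43.5 and 28.0 CPM. Neither overlapped between groups, with log2 fold changes of −1.80 (adjusted p = 1.88e-10) and −1.68 (adjusted p = 1.79e-06). LST1, a leukocyte gene of the same neighbourhood, was also lower, at 313 and 127 CPM (−1.30, adjusted p = 2.34e-09). So was AIF1 (244 and 195 CPM, adjusted p = 0.0144). NFKBIL1 was called lower too (108 and 17.4 CPM, log2 fold change −2.63, adjusted p = 0.0439). Its groups overlapped, so the rule for the largest losses left it out. The other tested genes within 100000 bases of TNF and LTB were not called, namely DDX39B, CSNK2B, GPANK1, APOM, BAG6, PRRC2A, NCR3, MICB and ATP6V1G2.

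MS4A3, a cell cycle regulator of granulocyte precursors, was at 46.8, 43.5 and 45.1 CPM in the controls and at 16.2, 12.4 and 12.1 CPM in the BCOR KO libraries (log2 fold change −1.74, adjusted p = 2.29e-09). CD84, an adhesion receptor of the SLAM family, had means of 14.3 and 3.61 CPM, NOTCH2, a Notch receptor, 14.2 and 3.39 CPM, and E2F5, a repressive E2F factor, 20.4 and 6.01 CPM. The groups of all 4 genes were apart. The remaining 2 of the 12 largest losses were the identifiers ENSG00000167236 and ENSG00000161570, for which no symbol was matched, with means of 26.5 and 7.61 CPM and of 88.2 and 26.9 CPM. INHBA, which encodes the activin A subunit, was at 232, 345 and 252 CPM in the controls and at 111, 120 and 95.9 CPM (−1.34, adjusted p = 6.89e-08).

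**Figure D2:**
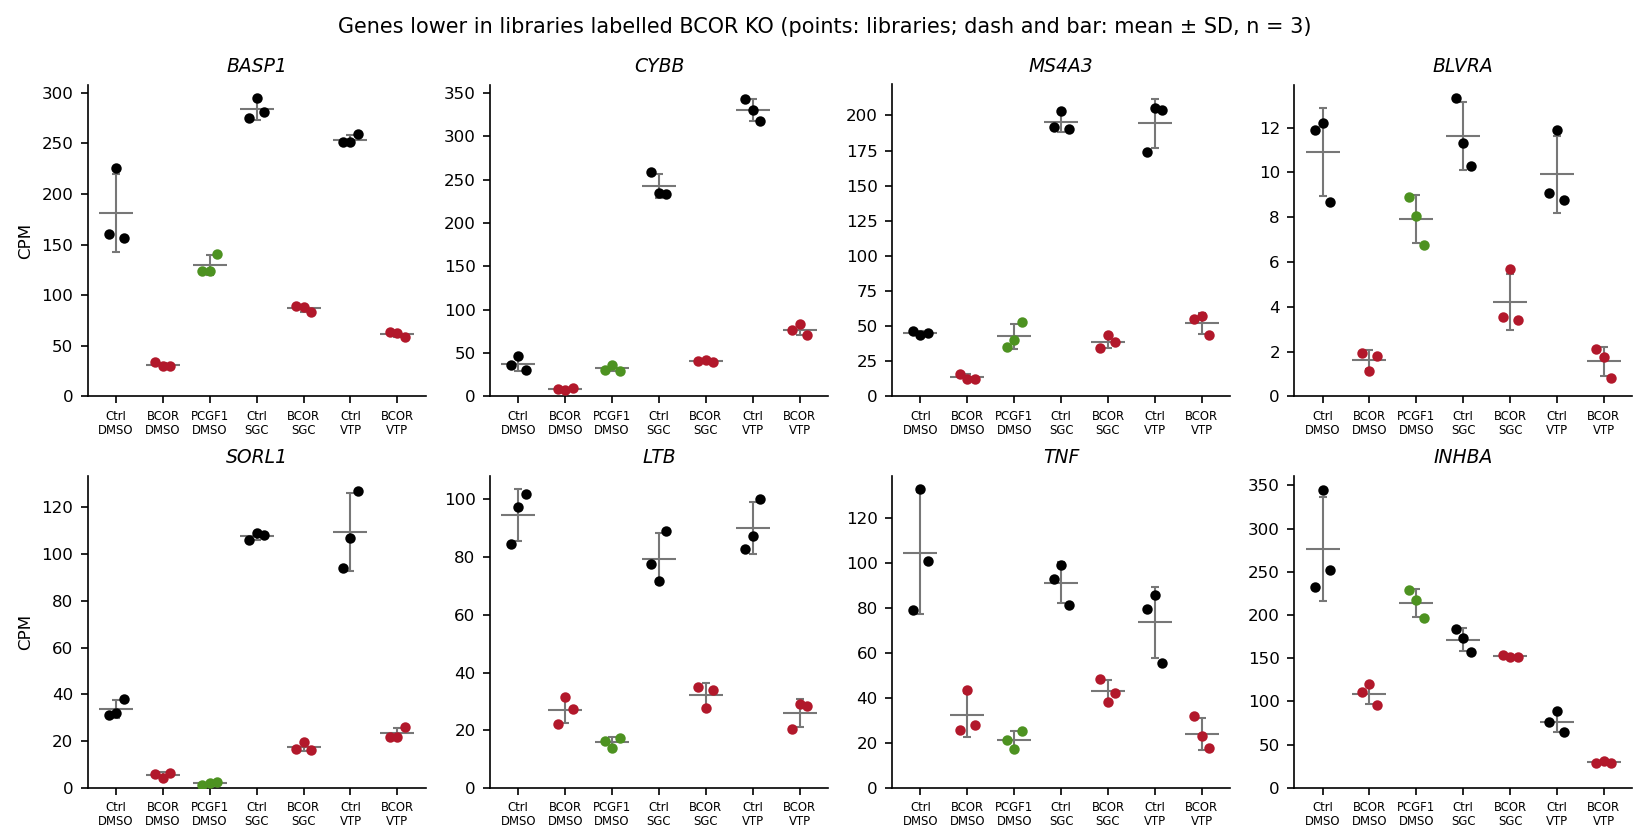
CPM of 8 genes that were lower in BCOR KO libraries, laid out by gene, treatment and population as in the plot of the raised genes. Points are libraries and the dash and bar are mean ± SD (n = 3), and for BASP1, CYBB, MS4A3 and BLVRA the PCGF1 KO libraries in DMSO lie nearer to the controls than to the BCOR KO libraries.

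Gene lists were then read against the 4.05% of all genes called higher and the 2.99% called lower. They held 71 called genes, of which 40 kept their call when each of the 6 libraries was left out in turn, and the less stable ones are named after the last list. The 24 tested developmental transcription factors, of 95 listed, had a median log2 fold change of 0.62, against −0.0095 for all genes, and 6 were called higher and none lower. Besides PAX5 and DLX3 these included TBX3, a T-box factor (5.19 and 10.9 CPM), ZIC2, a zinc finger factor of the neural tube (32.6 and 49.4 CPM), and OTP, a homeobox factor of the hypothalamus, whose adjusted p was 0.0496. Of 13 nuclear receptors, 3 were called higher, NR2F1 and PPARG among them. Of 14 replication-independent or polyadenylated histone genes, 3 were called higher, H2AJ and H2BC12 among them.

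Genes of cell communication moved in both directions. In the WNT and Notch list (17 tested, median 0.52) the Notch ligands DLL1 (3.54 and 24.5 CPM) and JAG1 (4.78 and 10.8 CPM), the Notch target HES1 (1.51 and 11.9 CPM), the WNT effector TCF7L2 (1.53 and 5.68 CPM) and the WNT receptor FZD3 (11 and 21.5 CPM) were higher, while NOTCH2 was the 1 gene lower. In the TGF-beta, BMP and activin list (23 tested, median 0.20) the ligand BMP4 (19.3 and 51.9 CPM), the ligand TGFB2 (1.35 and 4.62 CPM) and the receptor BMPR2 (3.28 and 8.02 CPM) were higher, and INHBA and the BMP inhibitor SMAD6 (15.9 and 6.49 CPM) lower. IGF1R, the receptor of insulin-like growth factors, rose from 2.65 to 10.1 CPM, and in its list of 8 IGFBP7 was called higher and IGFBP4 lower. Of 21 receptor tyrosine kinases and cytokine receptors, FGFR1 and IGF1R were called higher and AXL lower. Of 9 CDK inhibitors and D cyclins, CCND2, CCND1 and CDKN2D were called higher, yet none of 21 proliferation genes was called (median −0.05).

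Among 8 tested granulocyte genes, MPO (22.3 and 10.2 CPM), CTSG (121 and 67.4 CPM) and PRTN3 (1015 and 579 CPM), proteins of the azurophil granules, were lower and none was higher (median −0.41), while ELANE had means of 917 and 894 CPM. The summed granulocyte level was 1700 to 3084 CPM in the controls and 1577 to 1846 CPM in the BCOR KO libraries, ranges that overlap, with 9 listed genes at 0 in all 6. Of 9 monocyte genes, FCGR1A and MS4A7 were called lower and S100A9 higher, and the summed level was 155 to 187 CPM against 127 to 137 CPM, with 6 genes at 0. The part of these marker genes in the other changes was not tested, and in a bulk library fewer cells of a type and less RNA per cell cannot be told apart. The leukocyte integrin ITGAL (264 and 170 CPM) and LPXN were lower among 15 adhesion genes, and CD74 (149 and 107 CPM) and HLA-DRA among 4 MHC class II genes. SORL1 was the 1 gene called among 7 of the LDL receptor family. Among 28 myeloid transcription factors, RUNX1 (57.2 and 82.1 CPM), RUNX3 (34.8 and 53.6 CPM) and CEBPD were called higher.

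None of 21 tested target genes and none of 9 tested HOXA cluster genes was called, with medians of −0.00 and −0.05, and the edgeR test gave adjusted p of 0.168 for MEIS1 (22.3 and 29.8 CPM), 0.061 for HOXA13 (6.69 and 10.5 CPM), 0.058 for SOCS2 (19.6 and 27.6 CPM), 0.864 for HOXA10 (32.1 and 33.4 CPM) and 0.807 for MEF2C (218 and 226 CPM). AFF1, a partner of MLL fusion proteins in elongation complexes, was higher (42.9 and 68.4 CPM, adjusted p = 4.86e-04), as was PSIP1 in the same list of 9. Of the other Polycomb genes, PCGF3, CBX2 and CBX6 were called higher among 16 further PRC1 subunits, and PHF19 lower among 11 PRC2 subunits. BCL6 and TBL1X were called higher among 7 genes of the BCL6 co-repressor list.

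Metabolic, stress and cytokine response lists are read against the 7.04% of all genes called. INSIG1, SREBF1, FASN, SCD (539 and 722 CPM) and FADS1 (162 and 215 CPM) were called higher among 27 genes of cholesterol and fatty acid synthesis (median 0.06), and none was called lower. ATF4 (1177 and 895 CPM), ASNS (112 and 73.3 CPM) and SLC7A11 (41.6 and 28.1 CPM) were called lower among 23 genes of the ATF4 amino acid response (median −0.20). None of 22 glycolysis genes was called. Of 13 interferon-stimulated genes, IFIT3, RIGI and IFITM2 were called higher and BST2 and XAF1 lower. Of 10 SOCS, CISH and PIM genes, SOCS6 and CISH were called higher and PIM2 lower. The stem and progenitor, erythroid, megakaryocyte, T and NK cell, dendritic cell and fibroblast and epithelial markers had 1 to 3 tested genes each and no call. Neither had the 1 tested HOXC gene, no HOXB gene was tested, and the 1 entry tested of the HOXD list was LINC01305.

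The other 31 list members lost their call without at least 1 library, with a highest adjusted p between 0.0505 (CDKN2D) and 0.217 (PHF19). They included OTP, ZIC2, PPARG, H2BC12, TGFB2, IGFBP7, IGFBP4, AXL, CCND1, CDKN2D, FCGR1A, MS4A7, S100A9, HLA-DRA, CEBPD, PSIP1, PCGF3, CBX2, PHF19, BCL6, TBL1X, INSIG1, SREBF1, FASN, IFIT3, RIGI, BST2, XAF1, CISH and PIM2. Leaving out control replicates 1, 2 and 3 cost 13, 21 and 10 of these calls, and leaving out BCOR KO replicates 1, 2 and 3 cost 17, 19 and 18. OTP, with 7 reads in the BCOR KO and 0 in the control libraries, lost its call in all 6 of these fits. CCND1 and SREBF1 lost theirs in 5.

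Promoters of the genes called higher held more CpG dinucleotides than those of the genes called lower. In the 300 bases from 250 before to 50 after the canonical start, the median was 33 CpG for 480 genes called higher, 23 for 350 called lower and 27 for all 11815 with a start. At least 15 CpG were found in 84.8%, 64.3% and 81.1% of these. Among genes under 5 CPM in the controls, the median was 32 for the genes called higher and 22 for all. The 35 genes with at most 3 control reads and a start had a median of 27, the same as all genes. By chromosome, from 4.72% of the genes tested on chromosome 2 to 9.79% on chromosome 20 were called.

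The treated libraries of the same table are other samples, in which the same contrast was taken under SGC0946 and under VTP50469. Their column names carry the same G2 and NT tags, and no label names a separate editing. A difference between both populations of any source could thus recur in them. Of the 492 genes higher in DMSO, 462 (93.9%) had a log2 fold change above 0 in SGC0946 and 468 (95.1%) in VTP50469, against 50.3% and 51.1% of all genes. Of these, 251 and 283 were called higher there and 4 and 2 called lower, where 7.09% and 7.22% of all genes were called, that is 3.8% and 4.11% as higher. Of the 363 genes lower in DMSO, 336 (92.6%) and 340 (93.7%) were below 0, and 180 and 170 were called lower and none higher, where 3.29% and 3.11% of all genes were called lower. In all, 206 of the 492 and 141 of the 363 were called in the same direction under both inhibitors.

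**Figure D3:**
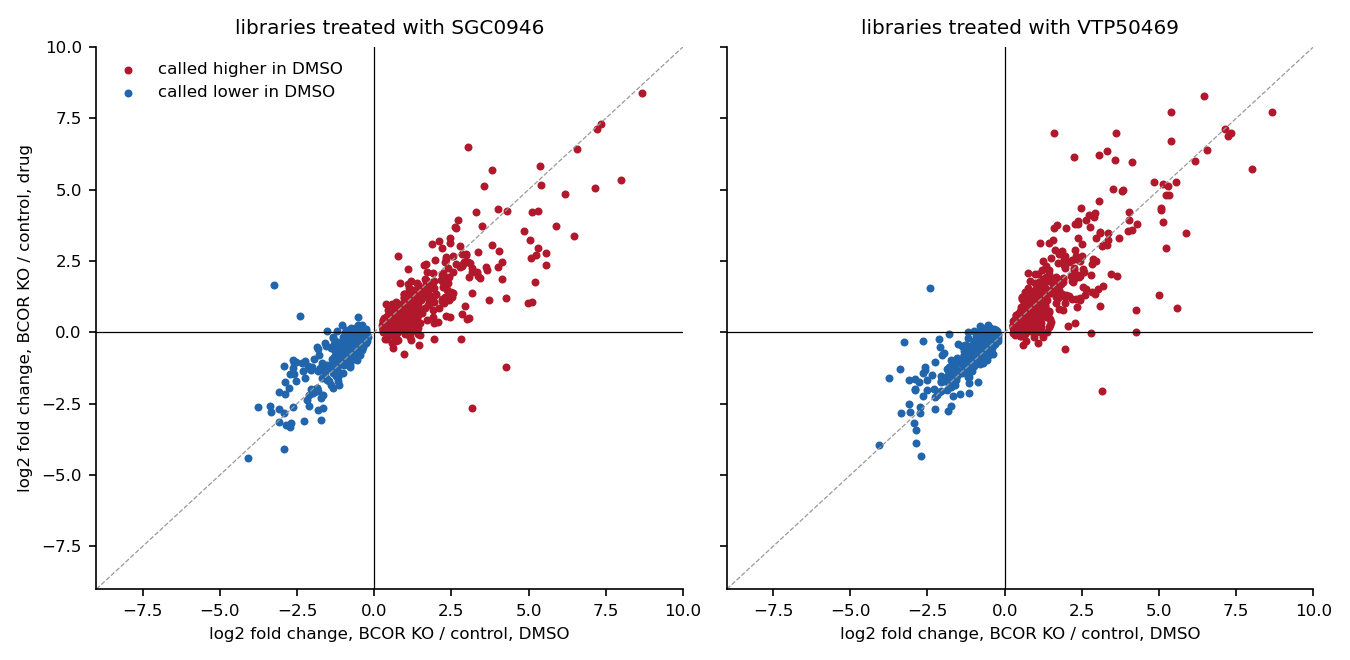
Log2 fold change between BCOR KO and control libraries in SGC0946 (left) or VTP50469 (right) against that in DMSO, for the 492 genes called higher (red) and the 363 called lower (blue) in DMSO. The dashed line marks equal change, and most red points lie above 0 and most blue points below 0 under both inhibitors.

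Several of the lowered genes had higher means in inhibitor-treated than in DMSO-treated control cells, and BCOR KO cells stayed below control cells at these levels. CYBB averaged 37.7 CPM in control cells in DMSO, 243 in SGC0946 and 331 in VTP50469, and 8.62, 41 and 77 CPM in BCOR KO cells. SORL1 averaged 33.7, 108 and 109 CPM in control cells and 5.48, 17.5 and 23.3 CPM in BCOR KO cells. MS4A3 averaged 45.1, 195 and 195 CPM against 13.6, 39.1 and 52 CPM, and MPO 22.3, 103 and 109 CPM against 10.2, 38.6 and 50.1 CPM. For these 4 genes BCOR KO cells were lower in each treatment, with every adjusted p at or below 1.23e-06.

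A test of the difference itself found few genes whose BCOR KO effect depended on the treatment. It called 30 genes (0.247%) for SGC0946 against DMSO, with 924 (7.61%) at an unadjusted p under 0.05, and 11 genes (0.0906%) for VTP50469, with 808 (6.66%) unadjusted. Without control VTP50469 replicate 3 or without BCOR KO DMSO replicate 2 the latter count was 7. Among them were MLL fusion targets that were not called in DMSO. HOXA9 averaged 92.2 and 85.8 CPM in control and BCOR KO cells in DMSO and 35 and 66 CPM in SGC0946. MEF2C averaged 218 CPM in control cells in DMSO, 52.1 CPM in SGC0946 and 24.7 CPM in VTP50469, against 226, 94.7 and 52.9 CPM in BCOR KO cells. SOCS2 averaged 19.6 and 27.6 CPM in DMSO and 3.78 and 16.7 CPM in SGC0946. The log2 effect of BCOR KO in SGC0946 was larger than that in DMSO by 1.02 for HOXA9 (adjusted p = 0.000881), 0.81 for MEF2C (0.00155) and 1.65 for SOCS2 (0.00155). In SGC0946 10 of the 21 targets were called higher in BCOR KO cells, against 3.8% of all genes. In VTP50469 6 of them were called higher and 1 lower, against 4.11% and 3.11% of all genes.

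PCGF1 KO cells differed from control in 13.8% of genes, 8.33% higher and 5.43% lower. They share their controls with the BCOR KO libraries, so the values are given side by side and not counted as a repeat. NR2F1 averaged 57.4 CPM in BCOR KO cells and 194 CPM in PCGF1 KO cells, EEF1A2 24 and 104 CPM, FGFR1 42 and 46.3 CPM, and CCND2 130 and 200 CPM. TFAP2A (34.2 and 17 CPM), GPX7 (9.33 and 1.55 CPM) and HES1 (11.9 and 3.24 CPM) were higher in BCOR KO cells. Among the lowered genes, LTB averaged 27.1 and 15.8 CPM and SORL1 5.48 and 1.93 CPM, whereas BASP1 averaged 31.3 and 129 CPM, CYBB 8.62 and 32.5 CPM, MS4A3 13.6 and 42.8 CPM and MPO 10.2 and 33.7 CPM.

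The direct test between both knockouts called 231 genes (1.9%) higher and 571 (4.7%) lower in BCOR KO cells, 6.61% of all. It called BASP1 (log2 difference −2.05, adjusted p = 1.61e-13), CYBB (−1.91, adjusted p = 1.1e-10), MS4A3 (−1.67, adjusted p = 4.12e-09) and MPO (−1.72, adjusted p = 2.51e-10), with control means of 181, 37.7, 45.1 and 22.3 CPM. The 5 largest differences towards BCOR KO were SORT1 (13.4 and 3.6 CPM), HES1, SMIM14 (11.8 and 3.84 CPM) and the identifiers ENSG00000272060 and ENSG00000268852. Those towards PCGF1 KO were IGFBP2 (0.0602 and 11.9 CPM), CADM1 (1.2 and 65.9 CPM), RAB11FIP5 (0.295 and 21.4 CPM), PTPRU and OTP. CADM1, an adhesion molecule, averaged 4.25 CPM in the controls, so BCOR KO and PCGF1 KO cells lay on opposite sides of them.

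The washout experiment gave a further look at cells labelled as edited at both genes, in a table of deeper and more variable libraries (21732246 to 47065530 reads in DMSO). PCGF1/BCOR double KO cells differed from control in 155 genes (1.22%), 0.958% higher and 0.259% lower, and in 287 (2.25%), 1.77% and 0.479%, with replicates as a block. Leaving out any 1 of the 6 libraries gave 79 to 102. Of the 492 genes higher in BCOR KO, 420 were tested there, 331 (78.8%) were above 0 against 46.3% of all, and 35 were called higher and 4 lower (62 and 4 with the block). Of the 363 lower genes 309 were tested, and 172 (55.7%) were below 0, near the 53.7% of all. Of these 309, 7 were called lower and 5 higher (16 and 10 with the block).

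FGFR1 averaged 1.01 and 14.9 CPM there in control and double KO cells, MYO6 2.46 and 77.9 CPM, and PLEKHO1 3.01 and 35.8 CPM. SP9 rose from 0.118 to 29.9 CPM and H2AJ from 0.0464 to 9.42 CPM. Other gains of the BCOR KO cells were not called there with or without the block. CCND2 averaged 6.23 and 16.2 CPM (adjusted p with the block 0.189), HIVEP2 0.485 and 0.875 CPM (1), and DLX3 0.0714 and 0.455 CPM (0.894). GPX7 averaged 0.0284 and 0.00972 CPM (1) and HES1 3.23 and 0.608 CPM (0.792). NR2F1 (0.189 and 4.47 CPM) was not called without the block (adjusted p = 0.0764) and was called with it (0.00208). Of the lowered genes SORL1 was lower there too (4.3 and 0.564 CPM, adjusted p = 0.0106), while MPO was higher (29.3 and 178 CPM, adjusted p = 0.000111) and BASP1 was not called (133 and 278 CPM, adjusted p = 0.486). CYBB (1.68 and 6.84 CPM) was not called without the block (adjusted p = 0.19) and was called higher with it (0.00471), against its direction in the BCOR KO cells.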

How the data were processed

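Whole-number read counts per gene were deposited without normalization, after the authors had trimmed with bbmap and mapped to GRCh38 with STAR. The methods name the gene counts of STAR for the human lines, but the lines of unassigned reads in the knockout table carry names in the form of HTSeq, so its counter is uncertain, and its strand setting is not given in the sources used here. Lines that name no gene were left out of library sizes. A gene was tested where 2 libraries or more reached 2 CPM (12140 genes in the knockout table, 12741 in the washout table). The quasi-likelihood test of edgeR 4.0.16 (R 4.3.3) was used with TMM scaling and Benjamini-Hochberg adjustment, in 1 model of the 9 groups and 27 libraries of the knockout table, and of the 24 libraries of the washout table. Standard errors are the log2 fold change divided by the root of the F statistic. CPM use TMM-scaled library sizes. Symbols were matched for 97.5% of the genes tested, by Ensembl identifier in GENCODE for GRCh38, which also gave coordinates and promoters. Of the washout table, 8 columns of samples were not used because no label names their group.

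The members, lists and tests were chosen with earlier results of these data known. Named genes were BCOR and other PRC1.1 subunits, 5 MLL target genes, the 12 highest and 12 lowest log2 fold changes among called genes with no overlap between groups and at least 10 CPM in the higher group, the 10 highest of the genes with at most 3 control counts, up to 4 members of each list, the 5 smallest adjusted p and the 3 most abundant called genes each way, and genes of the interaction and direct tests. Other called list members were added after their values were seen. A few genes that the rule names are not reported here.

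In the washout table the same-numbered control and double KO libraries deviated together from their group means (correlations across genes 0.666, 0.671 and 0.485), so the blocked fit is given there. Alternatives were DESeq2 1.42.0, other scalings, no filter, the compared libraries alone, the study's threshold and leaving out each library. The script was tested on simulated data. Ratios of counts have exact 95% intervals that cover counting error only.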

Additional observations from a re-analysis of the deposited data

Results flagged for a closer look

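The effect of BCOR KO differed between an inhibitor and DMSO, by the interaction term of the edgeR model, for the genes given here by the log2 effect under the inhibitor minus that in DMSO. Under SGC0946 the difference was 1.65 for SOCS2, 1.17 for INHBA, 1.05 for NKD2, 1.02 for HOXA9, 0.83 for BASP1, 0.82 for ETS2, 0.81 for MEF2C, 0.62 for DHRS9 and 0.56 for MS4A6A. INHBA, lower in BCOR KO cells in DMSO, averaged 171 CPM in control and 152 CPM in BCOR KO cells in SGC0946. Under the same inhibitor the difference was −5.82 for S100A9, −2.35 for TFAP2A, −2.26 for TBC1D4, −1.88 for MMP25, −1.71 for SLPI, −1.38 for DHRS3, −1.19 for MIR124-1HG, −1.17 for FAM43A, −1.14 for DNASE2, −1.01 for HIPK2, −0.96 for PRAM1, −0.81 for ARRB2, −0.65 for CCND2 and −0.64 for FKBP5. SLPI, a secreted protease inhibitor, averaged 8.06 CPM in control and 15.6 CPM in BCOR KO cells in DMSO and 75.3 and 44.3 CPM in SGC0946. TFAP2A stayed high in BCOR KO cells, at 34.2 CPM in DMSO and 27.4 CPM in SGC0946, while control cells averaged 0.806 and 3.47 CPM.

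Under VTP50469 the difference was 2.04 for NAT8L, 1.68 for TRIM7, 1.04 for MEF2C and 0.90 for CCND2. CCND2 averaged 24.8 CPM in control and 130 CPM in BCOR KO cells in DMSO and 10.3 and 101 CPM in VTP50469. The difference was −5.23 for S100A9, −1.13 for SLPI, −1.04 for PRAM1 and −0.79 for ARRB2. S100A9 had means of 0.0668 and 0.726 CPM in DMSO, a few reads in all.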

How the results depend on the processing

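The 855 calls in DMSO became 317 with the compared libraries alone, 1130 with the replicate number as a block and 596 to 1074 without 1 library. Same-numbered DMSO libraries correlated by only 0.0368, 0.0633 and 0.0868 across genes, though each correlated best with its own number. The same held in SGC0946 (0.032, 0.121 and 0.0617) and in VTP50469 (0.0688, 0.0776 and 0.171). Whether libraries of 1 number share a batch was not tested, and the main fit has no block. For PCGF1 KO, 1670 calls became 725 with the compared libraries alone. The 30 genes whose effect differed in SGC0946 became 139 with no filter and 17 with the compared libraries alone. The 11 of VTP50469 became 101 with no filter, 3 with the compared libraries alone, 20 with the block, 18 with DESeq2, 24 at the study's threshold and 7 to 16 without 1 library. The 155 of the washout comparison became 287 with the block, 284 with DESeq2, 494 with the compared libraries alone and 79 to 102 without 1 library. Other alternatives kept these counts within 1.5 times, and the cause of each move was not tested. Of 114 called genes recomputed singly, 68 kept direction and call under every alternative and 36 lost the call without some library. Genes not called in DMSO that changed sign were RING1 (−0.13 to 0.03 without 1 library), RNF2 (−0.09 to 0.38), RYBP (−0.10 to 0.10), HOXA10 (−0.08 to 0.30), MEF2C (−0.02 to 0.16) and PTPRU (−2.75 to 0.98, above 0 without control replicate 2).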
